A study of Mus musculus with 399 samples.

Results

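Livers of male TALLYHO/Jng (TH) mice that had eaten a high-fat diet for 16 weeks were set against livers of male TH mice kept on standard chow for the same time. The members are the 6 high-fat and 6 chow liver libraries labelled male, TH and 20 weeks, each from a different animal, which are 12 of the 399 libraries in the series and 12 of its 96 liver libraries. TH is an inbred mouse strain in which obesity and type 2 diabetes arise from several genes, with diabetes mostly in males. All 12 mice were weaned at 4 weeks onto their diet, were killed at 20 weeks of age, and carry no engineered allele in the labels. The composition of either diet is not given in the sources used here. The series also holds gonadal fat, soleus muscle and pancreas, females, C57BL/6J (B6) mice as the comparison strain, and mice sampled at 5 weeks of age after 1 week of feeding. From these, 3 other liver pairs of 6 high-fat and 6 chow mice were used for comparison, TH females at 20 weeks, B6 males at 20 weeks and TH males at 5 weeks.

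The liver turns surplus sugar into fatty acids, stores or exports them as triglyceride, makes cholesterol and bile acids, and clears drugs and ammonia. Fatty acid synthesis is driven by the transcription factors SREBP1c and ChREBP under insulin and sugar, and cholesterol synthesis by SREBP2 when sterol in the cell is low. In a fatty liver that becomes inflamed, recruited macrophages gather around dying hepatocytes and stellate cells lay down collagen.

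The measurement was the number of poly(A) RNA-seq reads per gene, with 7366453 to 11786849 reads a library. Levels are read counts scaled to each library's normalised total (CPM), given as the lowest, the median and the highest of 6 mice, and levels of different genes are not compared because CPM is not corrected for length. Changes are log2 fold changes of high-fat over chow with their standard error, from edgeR's quasi-likelihood test. A gene was called, and is said to have risen or fallen, at a Benjamini-Hochberg adjusted p under 0.05 over all 14041 genes tested.

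Both groups had high levels of hepatocyte genes, with Alb at 15492 to 22139 CPM (median 18263) on chow and 15257 to 19382 CPM (median 16715) on high-fat diet. The first principal component, 43.8% of the variance, separated the diets, and 2 libraries stood apart within their group. Chow mouse 1 deviated from its group mean by a root mean square of 0.514 in log2 units, against 0.213 to 0.319 in the other 11 libraries. It had summed acute phase genes of 47499 CPM against 16436 to 17973 in the other chow mice, and summed endothelial genes of 74.4 against 270 to 369. High-fat mouse 3 had summed fatty acid synthesis genes of 7058 CPM against 18385 to 24655 in the other high-fat mice. The test was therefore repeated with each of the 12 mice left out in turn, and the lists below are given with the range of their counts over those 12 fits or with the mice that moved them most.

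High-fat feeding changed 2154 genes, of which 1293 rose and 861 fell, or 9.21% and 6.13% of the genes tested. The counts given for each gene list below are to be read beside these shares. At least 2-fold changes were found in 453 of the genes that rose and 168 of those that fell. In 566 genes (4.03%) every high-fat mouse lay above every chow mouse, and in 378 (2.69%) every one lay below. The median change over all genes tested was -0.01. Without chow mouse 1 the test called 1463 rises (10.3%) and 1080 falls (7.57%), and 1973 of the 2154 genes were called in the same direction. Without high-fat mouse 3 it called 1493 rises (10.5%) and 992 falls (7%), and without both mice 1694 rises (12%) and 1240 falls (8.78%). Without high-fat mouse 6 the rises dropped to 779 and the total to 1425, and without high-fat mouse 2 the rises dropped to 832. In bulk tissue, fewer cells of a type and less RNA per cell cannot be told apart, and this holds for each marker list below.

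**Figure D1:**
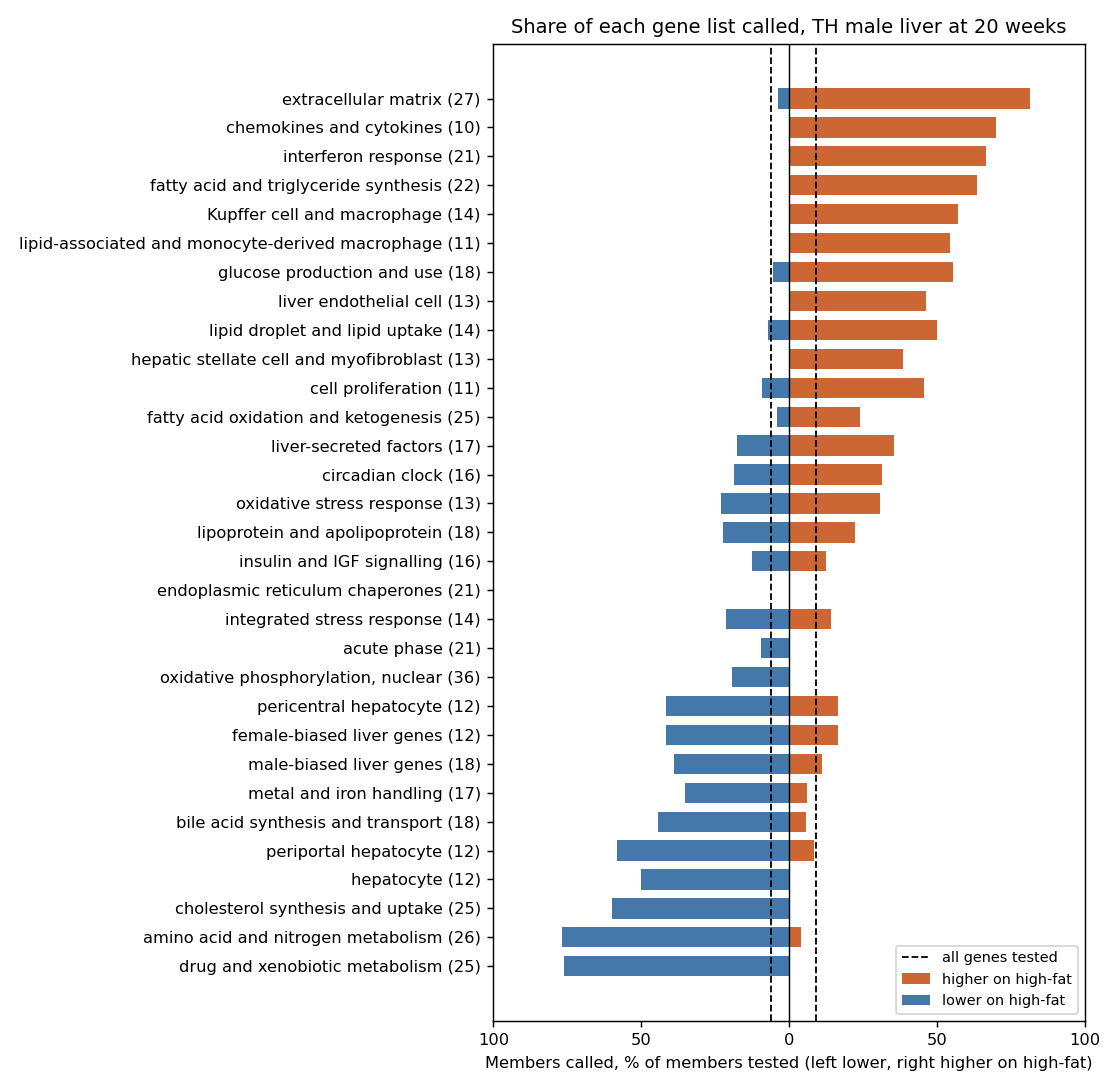
Share of the tested members of each gene list (number tested in brackets) that rose (right) or fell (left) on the high-fat diet in TH male liver at 20 weeks, for lists with at least 10 tested members, with dashed lines at the shares over all genes tested (9.21% up, 6.13% down). Matrix, chemokine, interferon and fatty acid synthesis lists reach furthest right, drug metabolism and amino acid lists furthest left, and the chaperone list has no bar.

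The largest rise was in Fam198a, a Golgi protein gene also called Gask1a, at 0 to 0.414 CPM (median 0.198) on chow and 2.54 to 15.4 CPM (median 12.4) on high-fat diet. Its log2 fold change was 5.80 ± 0.55, adjusted p = 1.36e-05, and the lowest high-fat value, in mouse 3, was still above every chow value. Apoa4, which codes for an apolipoprotein of chylomicrons and of liver-made particles, was at 23.1 to 55.3 CPM (median 50.5) on chow and 573 to 2237 CPM (median 1145) on high-fat diet. Apoa4 rose by 4.77 ± 0.35, adjusted p = 1.97e-06, and the groups were far apart. Rgs16, a regulator of G protein signalling (4.63 ± 0.59), Stap1, an adaptor of signalling proteins (4.57 ± 0.32), and Adgrv1, a very large adhesion receptor (4.18 ± 0.16), followed with no overlap between the diets. Ttc39aos1 (4.41 ± 0.74), Ttbk1 (3.92 ± 0.18), Pls1 (3.83 ± 0.39), the desaturase copies Scd3 (3.81 ± 0.46) and Scd4 (3.86 ± 0.44), Ptges (3.62 ± 0.36), the terminal synthase of prostaglandin E2, and Fgf21 (3.58 ± 0.56) completed the 12 largest rises, and their groups did not overlap either. Scd3 and Scd4 share sequence with Scd1 and Scd2, so reads may have been split among the copies.

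The largest fall was in Cyp2b10, the classical target of the receptor CAR, at 9.61 to 71.7 CPM (median 26.4) on chow and 0.102 to 0.316 CPM (median 0.212) on high-fat diet. Its log2 fold change was -7.36 ± 0.64, adjusted p = 7.66e-06, and all 6 high-fat livers were nearly without the transcript while chow mice ranged widely, with mouse 1 lowest and mouse 6 highest. Gsta2, a glutathione transferase with near-identical copies, was at 8.18 to 74.8 CPM (median 59) on chow and 2.49 to 8.73 CPM (median 4.16) on high-fat diet. Gsta2 fell by 3.42 ± 0.43 (adjusted p = 0.000184), with chow mouse 1, the lowest of its group, just below high-fat mouse 2. Meg3, an imprinted noncoding RNA, was at 3.27 to 9.92 CPM (median 4.91) on chow and 0.331 to 2.29 CPM (median 0.694) on high-fat diet, and high-fat mouse 1 alone was above the others. Its log2 fold change was -2.70 ± 0.39, adjusted p = 0.000489. Cyp26a1, which degrades retinoic acid, was at 18.7 to 97.5 CPM (median 28.1) on chow and 3.15 to 12.3 CPM (median 5.94) on high-fat diet, and its highest value came from chow mouse 3. Cyp26a1 fell by 2.53 ± 0.42 (adjusted p = 0.00128). Upp2, a uridine phosphorylase, changed by -2.65 ± 0.46 with overlapping groups. Its lowest chow value, 12.6 CPM, was in mouse 1, and without that mouse it changed by -2.89. Rab11fip4 changed by -2.29 ± 0.30 and the carboxylesterase Ces2a by -2.23 ± 0.22. Adgrf1, an adhesion receptor, and Dnaic1, an axonemal dynein chain, had falls that were larger without high-fat mouse 3, the highest of its group. Adgrf1 changed by -3.13 ± 0.66 with all 12 mice and -4.01 without that mouse, and Dnaic1 by -2.2 ± 0.59 and -3.06.

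Genes of fatty acid and triglyceride synthesis rose together: 14 of 22 tested members rose, none fell, and the median change was 1.34 against -0.01 over all genes. With 1 mouse left out the rises ranged from 13 to 15, and none fell. The summed level was 3954 to 6352 CPM on chow and 7058 to 24655 CPM on high-fat diet. Acaca, which makes malonyl-CoA, was at 62.5 to 89.5 CPM (median 77.9) on chow and 85.2 to 536 CPM (median 335) on high-fat diet, and Fasn, which builds palmitate from it, at 170.4 to 311 CPM (median 262) on chow and 255.7 to 2325 CPM (median 1615) on high-fat diet. In both genes high-fat mouse 3 lay inside the chow range, and the other 5 high-fat mice lay several times higher. Acaca rose by 2.09 ± 0.30, adjusted p = 0.000459 and Fasn by 2.62 ± 0.37, adjusted p = 0.000406. Elovl6, which lengthens palmitate, was at 43.6 to 68.3 CPM (median 55) on chow and 71.2 to 644 CPM (median 345) on high-fat diet and rose by 2.71 ± 0.38, adjusted p = 0.000381. Scd1, the main liver desaturase, which makes oleate, was at 728 to 1822 CPM (median 1118) on chow and 3102 to 13532 CPM (median 11102) on high-fat diet. Scd1 rose by 3.16 ± 0.32, adjusted p = 2.14e-05, and its groups did not overlap even with mouse 3. Scd2 (3.52 ± 0.42), the elongase Elovl5 (1.72 ± 0.20), the desaturases Fads1 (0.73 ± 0.14) and Fads2 (1.20 ± 0.16), the NADPH supplier Me1 (1.76 ± 0.30), Acly (1.41 ± 0.34), which makes cytosolic acetyl-CoA, Acacb (2.2 ± 0.44) and Gpam (1.28 ± 0.26), which starts glycerolipid synthesis, also rose.

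Srebf1, the gene of SREBP1c, was at 127 to 256.3 CPM (median 188) on chow and 114 to 315 CPM (median 264) on high-fat diet and was not called (0.36 ± 0.22, adjusted p = 0.296), but without high-fat mouse 3, its lowest value, it was (0.51, adjusted p = 0.0382). Mlxipl, the gene of ChREBP, was at 337 to 426 CPM (median 366) on chow and 297 to 394 CPM (median 349) on high-fat diet with a change of -0.10 ± 0.09, adjusted p = 0.5. Pklr, the liver pyruvate kinase and a classical ChREBP target, was at 54 to 90.9 CPM (median 63.8) on chow and 126 to 502 CPM (median 390.3) on high-fat diet and rose by 2.46 ± 0.25, adjusted p = 2.79e-05, with every high-fat mouse above every chow mouse. The last steps of triglyceride synthesis were not called, at -0.27 ± 0.12 for Dgat1 and -0.11 ± 0.10 for Dgat2. Pnpla3, a lipase-like gene of the same programme, had 341 reads over the 12 libraries and did not pass the filter on low counts. Without the filter its value was 5.44 ± 0.69, adjusted p = 1.73e-05, with 0.305 CPM in high-fat mouse 3, just above the chow range of 0 to 0.284.

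**Figure D2:**
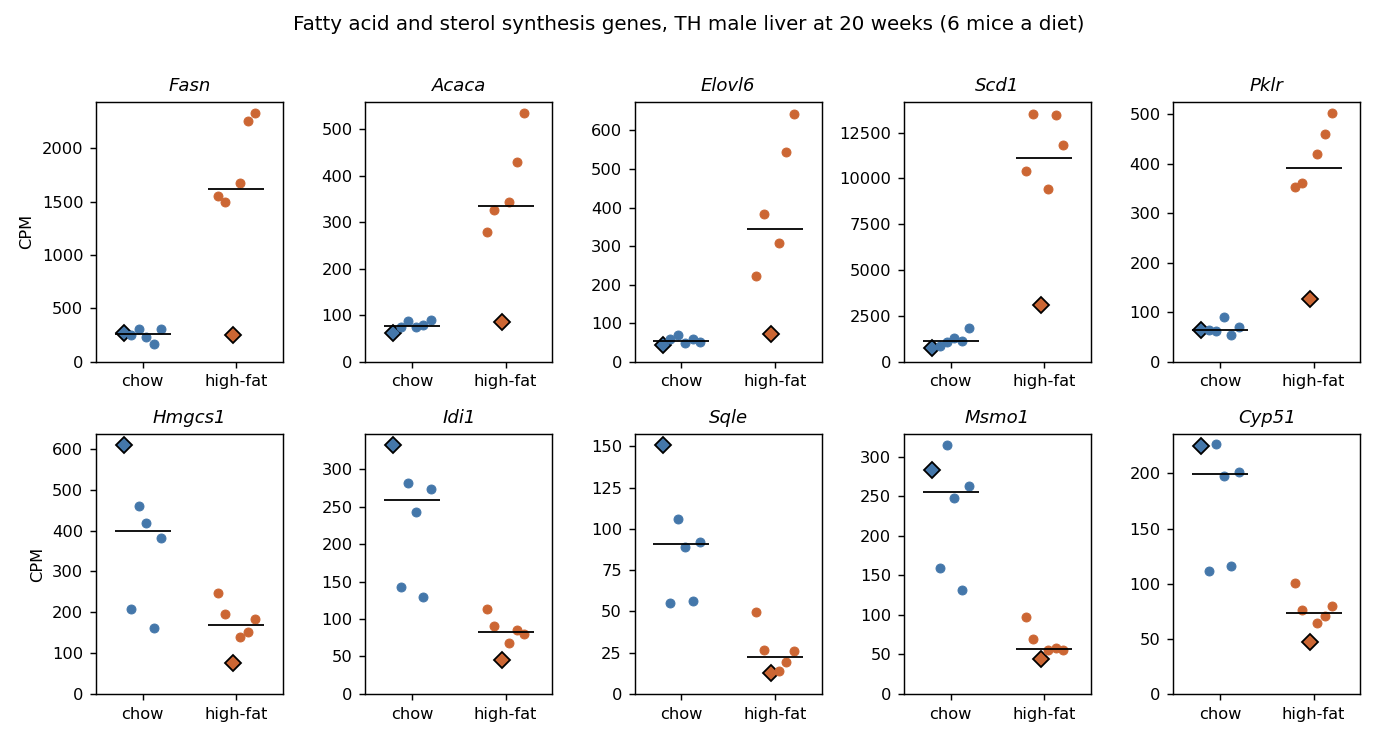
CPM of 5 fatty acid synthesis and glycolysis genes (top) and 5 sterol synthesis genes (bottom) in each of the 6 chow (blue) and 6 high-fat (orange) TH male livers, with bars at the medians and black-edged diamonds for chow mouse 1 and high-fat mouse 3. High-fat mouse 3 is the lowest of its group in every panel, inside the chow range for Fasn and Acaca, and the sterol genes are lower on the high-fat diet without overlap in all panels but Hmgcs1.

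Cholesterol synthesis moved the opposite way: 15 of 25 members fell, none rose, and the median change was -0.69. With 1 mouse left out 13 to 18 fell and none rose. Hmgcs1 makes the hydroxymethylglutaryl-CoA that enters the pathway, and its promoter is shown because it was the only 1 of 17 list members with a RefSeq promoter (GRCm38.p6) that held the core of a sterol response element, TCACNCCAC, the sequence bound by SREBP. The stretch lies at chr13:119690151-119690270 on the plus strand, 200 to 81 bases before the start site, and capitals mark the match.
Hmgcs1: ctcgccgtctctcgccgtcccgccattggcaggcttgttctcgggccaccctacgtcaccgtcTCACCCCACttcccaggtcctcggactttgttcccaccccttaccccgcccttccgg
Searched on both strands over the 250 bases before the start, these letters occur in 1.05% of 32851 mouse promoters, so a match is rare and describes the sequence only. Hmgcs1 was at 160.4 to 609.8 CPM (median 400.2) on chow and 75.7 to 246.9 CPM (median 168) on high-fat diet and fell by 1.17 ± 0.31 (adjusted p = 0.0192), with overlapping groups. Sqle, which oxidises squalene, was at 55.2 to 150.5 CPM (median 90.6) on chow and 12.8 to 49.4 CPM (median 22.6) on high-fat diet and fell by 1.90 ± 0.32 (adjusted p = 0.00131). Msmo1, a sterol methyl oxidase, was at 131 to 315 CPM (median 255.7) on chow and 43.6 to 97.5 CPM (median 56.6) on high-fat diet and fell by 1.89 ± 0.22 (adjusted p = 0.000109). In both genes every high-fat mouse lay below every chow mouse, and high-fat mouse 3 was no exception. Idi1 (-1.54 ± 0.24), Cyp51 (-1.30 ± 0.20), Mvk (-1.37 ± 0.27), Fdft1 (-1.11 ± 0.20) and Srebf2, the gene of SREBP2 itself (-0.69 ± 0.12), fell as well. Insig1, which holds SREBP back, was not called with all mice (-0.55 ± 0.26, adjusted p = 0.168). Without high-fat mouse 1, the highest of its group, it changed by -0.78 (adjusted p = 0.0439).

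Of 25 fatty acid oxidation genes 6 rose (6 to 7 with 1 mouse left out) and 1 fell (2 without chow mouse 1 and 0 in 8 of the other fits), and the median was 0.08. Vnn1, a pantetheinase and PPAR-alpha target, was at 0.148 to 2.99 CPM (median 0.62) on chow and 3.48 to 19.1 CPM (median 7.27) on high-fat diet and rose by 3.11 ± 0.59, adjusted p = 0.00304, with its highest value in high-fat mouse 3. Pdk4, the kinase that shuts pyruvate dehydrogenase, was at 6.1 to 18.5 CPM (median 10.2) on chow and 12.3 to 66.5 CPM (median 37.6) on high-fat diet and rose by 1.79 ± 0.34, adjusted p = 0.00301, and here mouse 3 was the lowest of the high-fat group. Cpt1a (0.50 ± 0.11), Acaa1b (0.71 ± 0.13) and Bdh1 (0.55 ± 0.10) rose too. The PPAR-alpha targets Cyp4a10 (-0.01 ± 0.35, adjusted p = 0.99) and Cyp4a14 (1.16 ± 0.50, adjusted p = 0.142) were not called, nor was Ehhadh (0.01 ± 0.12).

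Lipid uptake and storage genes held 7 rises and 1 fall among 14 tested, and the rises dropped to 4 without chow mouse 4 or high-fat mouse 2, 5 or 6. Cd36, the fatty acid translocase, was at 2.6 to 18.5 CPM (median 11.6) on chow and 17.2 to 102 CPM (median 43.7) on high-fat diet and rose by 2.19 ± 0.45, adjusted p = 0.00493. The groups just overlapped, at the lowest high-fat and the highest chow mouse. Fabp4, a fatty acid carrier of adipocytes and macrophages, was at 0.519 to 7.04 CPM (median 4.4) on chow and 9.16 to 18.4 CPM (median 13) on high-fat diet and rose by 1.67 ± 0.34, adjusted p = 0.00452. Plin2, the main coat protein of hepatocyte lipid droplets, was at 202 to 303 CPM (median 276) on chow and 353 to 605 CPM (median 451) on high-fat diet, and every high-fat mouse was above every chow mouse (0.84 ± 0.14, adjusted p = 0.00133). Mgll, which cleaves monoglyceride, rose by 0.95 ± 0.10, adjusted p = 2.99e-05. Mogat1 and Cidec, genes of the fatty liver programme, did not pass the filter on low counts and had 4.95 ± 0.93, adjusted p = 0.00129 and 2.54 ± 0.59, adjusted p = 0.00832 without it. Pparg, their regulator, was not called there (0.70 ± 0.52, adjusted p = 0.512).

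Sugar-handling genes leaned upward, with 10 of 18 up and 1 down (7 to 11 up and 1 to 2 down with 1 mouse left out). Khk, which phosphorylates fructose, was at 126 to 177 CPM (median 170.4) on chow and 237 to 515 CPM (median 420.1) on high-fat diet and rose by 1.32 ± 0.15, adjusted p = 7.5e-05 without overlap. Pck1, which commits carbon to glucose production, was the gene that fell, at 716 to 1396 CPM (median 1286) on chow and 403 to 724 CPM (median 592) on high-fat diet with a change of -1.0 ± 0.19, adjusted p = 0.00328. G6pc, the last step of glucose output, was not called with all mice (0.55 ± 0.25, adjusted p = 0.163) and was without high-fat mouse 3 (0.68). Of 16 insulin and IGF genes 2 rose and 2 fell, 12.5% each beside 9.21% and 6.13% of all genes tested. There were 0 to 2 rises and 2 to 3 falls when 1 mouse was left out. Igfbp2, a circulating IGF binding protein, was at 212 to 449 CPM (median 328) on chow and 59.4 to 187 CPM (median 73.5) on high-fat diet and fell by 1.80 ± 0.27 (adjusted p = 0.000527), and Igfals, which stabilises IGF in blood, fell by 0.83 ± 0.17 (adjusted p = 0.00507). Both were lower in every high-fat mouse. The insulin receptor gene Insr was not called (-0.14 ± 0.09, adjusted p = 0.322).

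Lipoprotein genes were mixed, with 4 up and 4 down of 18 (3 to 4 and 1 to 4 with 1 mouse left out, fewest falls without high-fat mouse 6). Beside Apoa4, the phospholipid transfer protein Pltp rose by 1.69 ± 0.26, adjusted p = 0.000744 and Mttp, which loads lipid onto apolipoprotein B, by 0.36 ± 0.08, adjusted p = 0.00932, both without overlap. Apom fell by 0.56 ± 0.10 (adjusted p = 0.00157). Apob itself was at 6358 to 8753 CPM (median 7716) on chow and 7256 to 8476 CPM (median 7957) on high-fat diet with a change of 0.04 ± 0.09, adjusted p = 0.812. Bile acid genes fell in 8 of 18 cases (6 to 8 with 1 mouse left out) and rose in 1. Cyp7a1, which sets the pace of the classical bile acid route, was at 57.8 to 419.6 CPM (median 133) on chow and 22.9 to 80.5 CPM (median 60.5) on high-fat diet, with the widest spread among chow mice, and fell by 1.77 ± 0.45 (adjusted p = 0.016). Cyp27a1 of the alternative route fell by 0.66 ± 0.12 (adjusted p = 0.00273). The transporter gene Slco1a4 was at 32.7 to 83.5 CPM (median 67.4) on chow and 13.9 to 16.7 CPM (median 15.4) on high-fat diet and fell by 2.05 ± 0.17 (adjusted p = 4.72e-06). Abcc3, an exporter of bile acids back to blood, was at 240.1 to 380.4 CPM (median 358) on chow and 104 to 153 CPM (median 123) on high-fat diet and fell by 1.40 ± 0.13 (adjusted p = 1e-05). Neither transporter's groups overlapped. Abcb4, which moves phosphatidylcholine into bile, was the member that rose (0.76 ± 0.12, adjusted p = 0.00089), and the bile acid receptor gene Nr1h4 was not called (0.18 ± 0.08).

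Drug and xenobiotic metabolism was the list with the lowest median, -1.26: 19 of 25 members fell and none rose (17 to 20 fell with 1 mouse left out, and 1 rose without high-fat mouse 3). Cyp3a11, the most studied drug-oxidising P450 of mouse liver, was at 5784 to 11009 CPM (median 9561) on chow and 3217 to 3881 CPM (median 3310) on high-fat diet and fell by 1.41 ± 0.13 (adjusted p = 1.36e-05). Cyp2c29 was at 1964 to 2520 CPM (median 2137) on chow and 463 to 1161 CPM (median 784) on high-fat diet and fell by 1.46 ± 0.17 (adjusted p = 8.91e-05). Por, which feeds electrons to the microsomal P450s, was at 78.5 to 114 CPM (median 94.7) on chow and 30.8 to 48.8 CPM (median 38.9) on high-fat diet and fell by 1.26 ± 0.12 (adjusted p = 1.92e-05). In each of the 3 genes all high-fat mice lay below all chow mice. Ces2a was at 267 to 528 CPM (median 454) on chow and 55.3 to 137 CPM (median 90) on high-fat diet, Ugt1a1, which conjugates bilirubin, fell by 1.34 ± 0.12 and Gsta4 by 1.04 ± 0.12. Other P450 genes that fell were Cyp2c37 (-1.57 ± 0.19), Cyp2c50 (-1.41 ± 0.18), Cyp2c54 (-1.82 ± 0.23), Cyp2c55 (-2.97 ± 0.55), Cyp2a5 (-1.76 ± 0.27), Cyp1a2 (-0.85 ± 0.16) and Cyp3a25 (-1.02 ± 0.14). The Cyp2c, Cyp3a and Gsta genes have close copies among which reads may have been split. Nr1i3, the gene of CAR, was just short of the threshold (-0.44 ± 0.14, adjusted p = 0.0516), and passed it without chow mouse 6 (adjusted p = 0.0225) or high-fat mouse 3 (adjusted p = 0.00997).

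Amino acid and nitrogen genes fell in 20 of 26 cases (18 to 21 with 1 mouse left out) and rose in 1, with a median of -0.62. Cps1, which starts the urea cycle, was at 2392 to 4484 CPM (median 3845) on chow and 1420 to 2612 CPM (median 1738) on high-fat diet and fell by 1.03 ± 0.17 (adjusted p = 0.00133). Arg1, which ends the cycle, was at 771 to 1055 CPM (median 861) on chow and 425 to 618 CPM (median 458) on high-fat diet and fell by 0.87 ± 0.11 (adjusted p = 0.00018). Asl (-0.69 ± 0.11), Ass1 (-0.69 ± 0.15) and Nags (-0.47 ± 0.10) fell with them. Tat, which degrades tyrosine, was at 841 to 1418 CPM (median 1070) on chow and 363 to 611 CPM (median 489) on high-fat diet. Tat and Hal, which degrades histidine, were lower in every high-fat mouse (-1.18 ± 0.14 and -1.17 ± 0.14). Sds (-1.19 ± 0.20), Oat (-1.0 ± 0.17), Gls2 (-0.91 ± 0.16), Gpt (-0.72 ± 0.11) and Tdo2 (-0.72 ± 0.11) also fell. Glul, which makes glutamine in the hepatocytes around the central vein, was the member that rose, at 371 to 555 CPM (median 445) on chow and 590.3 to 775 CPM (median 713) on high-fat diet with a change of 0.63 ± 0.10, adjusted p = 0.00108 and no overlap. Of 12 pericentral markers 2 rose and 5 fell, and of 12 periportal markers 1 rose and 7 fell, so falls were found in both zones, 4 to 5 and 7 to 8 of them with 1 mouse left out. Among 12 general hepatocyte markers 6 fell, as with any 1 mouse left out, with Hnf4a at 645 to 783 CPM (median 737) on chow and 483 to 594 CPM (median 510.0) on high-fat diet and a change of -0.48 ± 0.08, adjusted p = 0.001, while Alb (-0.16 ± 0.11, adjusted p = 0.364) and Ttr (-0.13 ± 0.09, adjusted p = 0.37) were not called.

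**Figure D3:**
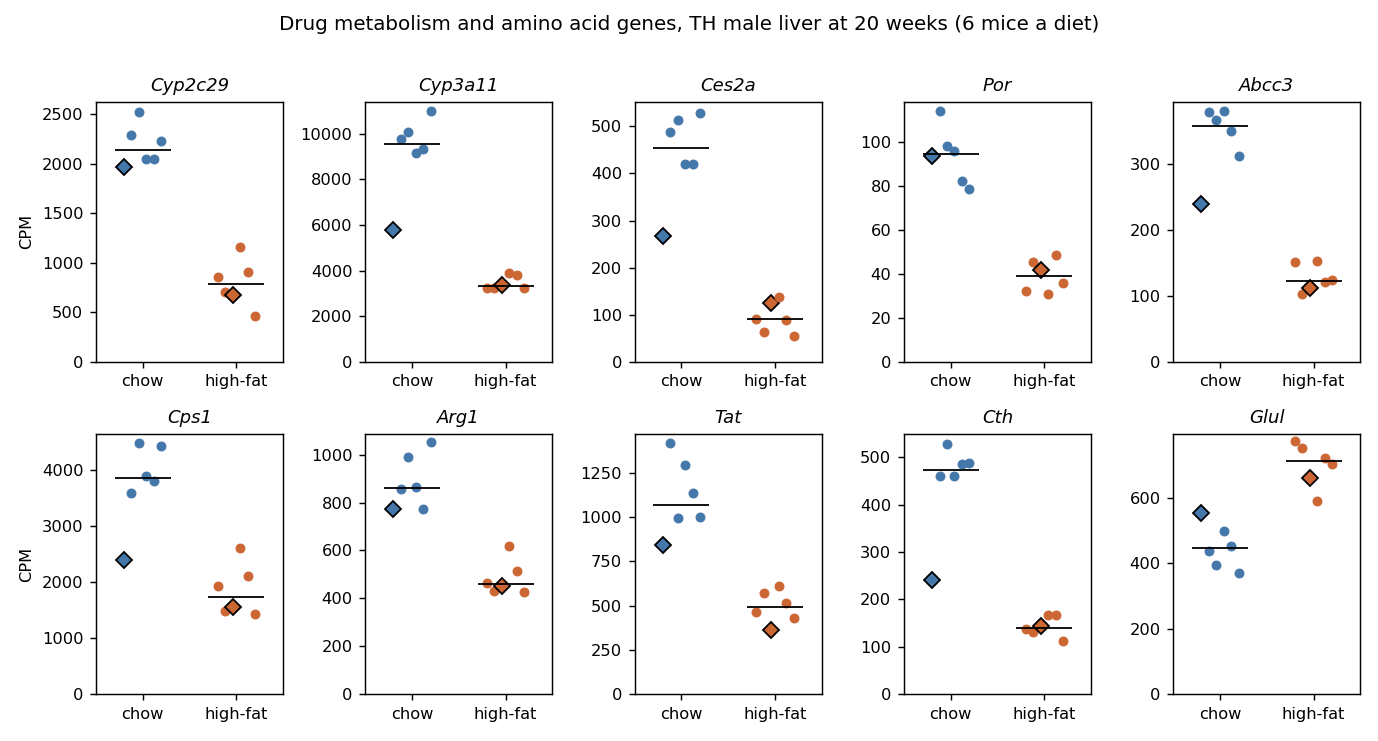
CPM of 5 drug metabolism and transport genes (top) and 5 amino acid genes (bottom) in each of the 6 chow (blue) and 6 high-fat (orange) TH male livers, with bars at the medians and black-edged diamonds for chow mouse 1 and high-fat mouse 3. All genes shown are lower on the high-fat diet except Glul, which is higher, and the groups do not overlap in any panel except Cps1.

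Genes that differ between the sexes in mouse liver moved in both directions. Of 18 male-biased genes 2 rose and 7 fell, with 11 falls without high-fat mouse 3 and 4 without chow mouse 4 or 6 or high-fat mouse 2, 4, 5 or 6. Mup20, the pheromone darcin, was at 2331 to 3582 CPM (median 2876) on chow and 8008 to 11262 CPM (median 9013) on high-fat diet and rose by 1.69 ± 0.13, adjusted p = 2.58e-06, and Mup21 rose by 1.20 ± 0.18, adjusted p = 0.00052. Serpina1e was at 7731 to 12127 CPM (median 9014) on chow and 1991 to 6775 CPM (median 3697) on high-fat diet and fell by 1.22 ± 0.26 (adjusted p = 0.00556), with no overlap. Gstp1 fell by 0.66 ± 0.09 (adjusted p = 0.000459). Mup1 was at 7120 to 11085 CPM (median 9840) on chow and 1843 to 9557 CPM (median 5037) on high-fat diet, spread widely among high-fat mice and was not called (-0.95 ± 0.31, adjusted p = 0.051). It was called without chow mouse 1 (-1.02, adjusted p = 0.0397) and without high-fat mouse 3 (-1.25, adjusted p = 0.00519). Of 12 tested female-biased genes 2 rose (1 to 3 with 1 mouse left out) and 5 fell (5 to 6). The falls were Cyp3a16, Cyp3a41a, Cyp3a41b, Cyp3a44 and Cyp2a4, close copies of one another or of Cyp3a11 and Cyp2a5, with -1.87 ± 0.34 for Cyp3a16 and -1.59 ± 0.17 for Cyp3a44. Abcd2, a peroxisomal fatty acid transporter, was at 0.735 to 2.27 CPM (median 1.07) on chow and 4.17 to 8.93 CPM (median 6.61) on high-fat diet and rose by 2.50 ± 0.27, adjusted p = 5.04e-05. The Mup and Cyp3a families share reads among copies, and their separate values are uncertain.

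Secreted factors of the liver included some of the clearest rises, 6 of 17 tested with 3 falls (4 to 6 and 2 to 4 with 1 mouse left out). Inhba, a subunit of activin A, was at 7.97 to 26.9 CPM (median 10.8) on chow and 31.2 to 55.3 CPM (median 40.1) on high-fat diet and rose by 1.67 ± 0.25, adjusted p = 0.000621. Serpina12, the gene of vaspin, was at 40.3 to 71.5 CPM (median 52.7) on chow and 144 to 162 CPM (median 156) on high-fat diet and rose by 1.48 ± 0.14, adjusted p = 1.36e-05. Both showed no overlap. Fetub, fetuin B, fell by 0.94 ± 0.19 (adjusted p = 0.00443), and Agt, angiotensinogen, by 0.71 ± 0.13 (adjusted p = 0.00282). Fgf21, a hormone of starvation, protein shortage and cell stress, was at 0.142 to 3.64 CPM (median 0.463) on chow and 5.47 to 19.9 CPM (median 8.73) on high-fat diet, and every high-fat mouse lay above every chow mouse. The highest chow value, in mouse 1, compared with 0.142 to 0.69 in the other chow mice. Fgf21 rose by 3.58 ± 0.56, adjusted p = 0.000825, and by 4.83 without chow mouse 1.

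Fgf21 is also a target of the integrated stress response, in which ATF4 and CHOP bind composite elements with the core TGATGNAA. That core, searched on both strands over 250 bases, was in the RefSeq promoters of 4 of 17 list members with one, Asns, Chac1, Fgf21 and Nupr1, against 3.45% of all promoters. A member counted if any of its promoters matched, whereas the share is of single promoters. The stretches of Fgf21 (chr7:45615571-45615690, minus strand, 200 to 81 bases before the start, match on the opposite strand) and of Asns (chr6:7693210-7693309, minus strand, 100 to 1 bases before the start) are shown because these genes hold the same core and moved in opposite directions, with the match in capitals.
Fgf21: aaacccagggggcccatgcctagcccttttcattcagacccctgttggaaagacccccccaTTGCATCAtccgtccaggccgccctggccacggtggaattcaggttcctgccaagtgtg
Asns: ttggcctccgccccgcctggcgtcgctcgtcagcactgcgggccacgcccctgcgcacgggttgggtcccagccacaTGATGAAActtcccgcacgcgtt
Asns, asparagine synthetase, was at 0.852 to 4.68 CPM (median 1.93) on chow and 0.316 to 1.46 CPM (median 0.479) on high-fat diet and fell by 1.71 ± 0.43 (adjusted p = 0.0155). Of the 14 tested genes of this response 2 rose and 3 fell (1 to 2 and 2 to 3 with 1 mouse left out), with a median of 0.06. Trib3 (-0.51 ± 0.21, adjusted p = 0.123) and Ddit3, the gene of CHOP (0.18 ± 0.25, adjusted p = 0.698), were not called. Cth, which makes cysteine, fell by 1.64 ± 0.16 (adjusted p = 2.12e-05). None of 21 endoplasmic reticulum chaperone genes was called with all mice or with any 1 mouse left out. Hspa5, the chaperone BiP, was at 721 to 1705 CPM (median 1141) on chow and 656 to 1432 CPM (median 1070) on high-fat diet with a change of -0.14 ± 0.21, adjusted p = 0.728. Of 36 nuclear genes of oxidative phosphorylation 7 fell slightly, among them Ndufb10 of complex I (-0.27 ± 0.07, adjusted p = 0.0179) and Uqcrfs1 of complex III (-0.23 ± 0.06, adjusted p = 0.0214), and none rose. The falls ranged from 2, without chow mouse 3 or high-fat mouse 2, to 9, without chow mouse 1. Of 13 oxidative stress genes 4 rose and 3 fell (2 to 4 and 1 to 3 with 1 mouse left out), and Nfe2l2, the gene of NRF2, was at 46.8 to 71.4 CPM (median 65.2) on chow and 83.3 to 196 CPM (median 132) on high-fat diet and rose by 1.14 ± 0.18, adjusted p = 0.00104 without overlap.

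Metal-handling genes fell in 6 of 17 cases (5 to 6 with 1 mouse left out) and rose in 1. Mt1 and Mt2 code for metallothioneins, small zinc-binding proteins whose promoters hold metal response elements, with the core TGCACNC or TGCGCNC. Mt2 is shown with the 250 bases before its start (chr8:94172368-94172617, plus strand), where 3 matches in capitals were found, and Mt1 with 100 bases and 1 match (chr8:94178989-94179088, plus strand).
Mt2: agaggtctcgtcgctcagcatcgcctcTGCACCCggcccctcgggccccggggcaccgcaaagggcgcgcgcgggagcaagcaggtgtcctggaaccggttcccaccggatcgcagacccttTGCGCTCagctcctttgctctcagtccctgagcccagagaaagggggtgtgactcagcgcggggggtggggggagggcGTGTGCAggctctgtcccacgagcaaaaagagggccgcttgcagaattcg
Mt1: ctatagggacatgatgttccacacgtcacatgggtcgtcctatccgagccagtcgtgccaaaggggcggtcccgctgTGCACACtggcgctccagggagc
The core is short and occurs, on either strand over the same 250 bases, in 21.4% of promoters, and at least 3 matches occur in 1.26%. It was in at least 1 RefSeq promoter of 7 of the 12 metal-handling members that had any, whereas the 21.4% counts single promoters. Of these Mt1, Mt2 and Slc30a1 fell, Slc30a10 rose, and Bmp6 and Tfrc were not called. Slc30a10 also had 3 matches, but 2 of them overlapped on opposite strands, whereas the 3 matches of Mt2 lay apart. Slc39a5 was under the filter on low counts. Mt1 was at 2.51 to 85.6 CPM (median 9.15) on chow and 0.796 to 3.46 CPM (median 2.12) on high-fat diet and Mt2 at 1.45 to 66.6 CPM (median 2.62) on chow and 0.0995 to 2.24 CPM (median 0.794) on high-fat diet, and in both genes chow mouse 1 was far above the rest. The other 5 chow mice ran from 2.51 to 17.9 CPM for Mt1 and from 1.45 to 6.35 CPM for Mt2. Mt1 changed by -3.30 ± 0.75, adjusted p = 0.00885 with all mice and by -2.04 without chow mouse 1. Mt2 changed by -3.81 ± 1.06, adjusted p = 0.0251 with all mice and by -1.61 without chow mouse 1, and its call was lost without high-fat mouse 2, 5 or 6, at -3.67, -3.81 and -3.94. The zinc importer gene Slc39a4 was at 21.9 to 48.7 CPM (median 42.5) on chow and 9.55 to 22.9 CPM (median 14.3) on high-fat diet and fell by 1.45 ± 0.21 (adjusted p = 0.000519). Slc30a1, the zinc exporter, fell by 0.59 ± 0.10 (adjusted p = 0.0016), with every high-fat mouse below every chow mouse. Hamp, the gene of the iron hormone hepcidin, fell by 1.10 ± 0.28 (adjusted p = 0.0171), and Slc30a10, a manganese exporter, rose by 0.52 ± 0.11, adjusted p = 0.00468.

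Acute phase genes depended on 1 library. With all mice 0 of 21 rose and 2 fell, and without chow mouse 1 there were 5 rises and 1 fall. With any other mouse left out none rose and 0 to 3 fell. Saa1, serum amyloid A, was at 9.94 to 1308 CPM (median 36.9) on chow and 54.3 to 141 CPM (median 78.5) on high-fat diet, with the highest value in chow mouse 1. Saa1 was not called with all mice (-1.51 ± 0.94, adjusted p = 0.316) and rose by 1.23 (adjusted p = 0.0307) without that mouse. Lcn2, lipocalin 2, was at 0.994 to 128 CPM (median 3.38) on chow and 7.07 to 56.4 CPM (median 15.1) on high-fat diet, again with chow mouse 1 highest and high-fat mouse 6 highest of its group. Lcn2 changed by -0.15 ± 0.94, adjusted p = 0.946 with all mice and by 2.92 (adjusted p = 0.00214) without that mouse. Saa2 and Serpina3n changed direction in the same way, from -2.05 ± 1.15 to 2.15 and from -0.04 ± 0.27 to 0.40. The fibrinogen genes Fga (-0.36 ± 0.22), Fgb (-0.40 ± 0.22) and Fgg (-0.33 ± 0.22) were not called with all mice.

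Extracellular matrix genes rose in 22 of 27 tested cases and 1 fell, with a median of 1.13. The rises ranged from 16, without high-fat mouse 2, 5 or 6, to 25, without chow mouse 1. The summed level was 2140 to 2836 CPM on chow and 2712 to 3601 CPM on high-fat diet. Col1a1, a chain of the main scar collagen, was at 2.34 to 5.51 CPM (median 4.68) on chow and 6.82 to 60 CPM (median 22.3) on high-fat diet and rose by 2.47 ± 0.47, adjusted p = 0.00292. Col1a2 was at 3.12 to 10.8 CPM (median 9.64) on chow and 14.2 to 86 CPM (median 36.9) on high-fat diet and Col3a1 at 10.8 to 39 CPM (median 31.4) on chow and 49 to 202 CPM (median 104) on high-fat diet. In these 3 collagen genes every high-fat mouse lay above every chow mouse, with high-fat mice 3 and 4 lowest and mouse 6 highest. Col1a2 rose by 2.19 ± 0.39, adjusted p = 0.00218 and Col3a1 by 1.91 ± 0.34, adjusted p = 0.00223. Col5a3 (1.70 ± 0.22), the collagen cross-linking enzyme gene Loxl2 (1.62 ± 0.30), Sparc (1.27 ± 0.28), Postn (1.37 ± 0.25), Thbs1 (1.68 ± 0.43), Thbs2 (1.13 ± 0.27), Col6a3 (1.41 ± 0.30) and elastin, Eln (1.31 ± 0.27), rose too. Col5a2 was the member that fell, at 20.9 to 50.8 CPM (median 33.8) on chow and 6.92 to 23.1 CPM (median 14.2) on high-fat diet with a change of -1.32 ± 0.27, adjusted p = 0.00467. Timp1 and Lox were below the filter on low counts and had 3.54 ± 0.70, adjusted p = 0.00225 and 1.71 ± 0.44, adjusted p = 0.0178 without it.

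Markers of the cells that could carry these transcripts moved as well. Of 13 stellate cell and myofibroblast markers 5 rose and none fell, and their summed level was 83.9 to 332 CPM on chow and 384 to 467 CPM on high-fat diet. The rises dropped to 1 without chow mouse 5 or high-fat mouse 1, 2 or 6, to 2 without high-fat mouse 5 and to 3 without chow mouse 2 or 4 or high-fat mouse 4. The low end of the chow range was chow mouse 1 at 83.9, and the other chow mice ran from 247.1 to 332. Cygb, a stellate cell globin, was at 3.77 to 8.23 CPM (median 7.08) on chow and 8.46 to 15.8 CPM (median 11.5) on high-fat diet and rose by 0.80 ± 0.18, adjusted p = 0.00859, while the contractile genes Acta2 (0.45 ± 0.33, adjusted p = 0.416) and Tagln (0.42 ± 0.25, adjusted p = 0.28) were not called. Of 13 liver endothelial markers 6 rose and none fell, with 11 rises without chow mouse 1 and 3 without high-fat mouse 2. Lyve1, a sinusoidal endothelial receptor, was at 0.13 to 2.3 CPM (median 1.58) on chow and 3.19 to 10.1 CPM (median 5.85) on high-fat diet and rose by 1.96 ± 0.39, adjusted p = 0.00389. Kdr, the main VEGF receptor, was at 6.23 to 67.1 CPM (median 54.3) on chow and 54.7 to 69.5 CPM (median 59.7) on high-fat diet and was not called (0.33 ± 0.33, adjusted p = 0.579). Chow mouse 1 had the lowest value of Cygb, Lyve1 and Kdr. The part of cell numbers in the collagen rises was not tested.

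**Figure D4:**
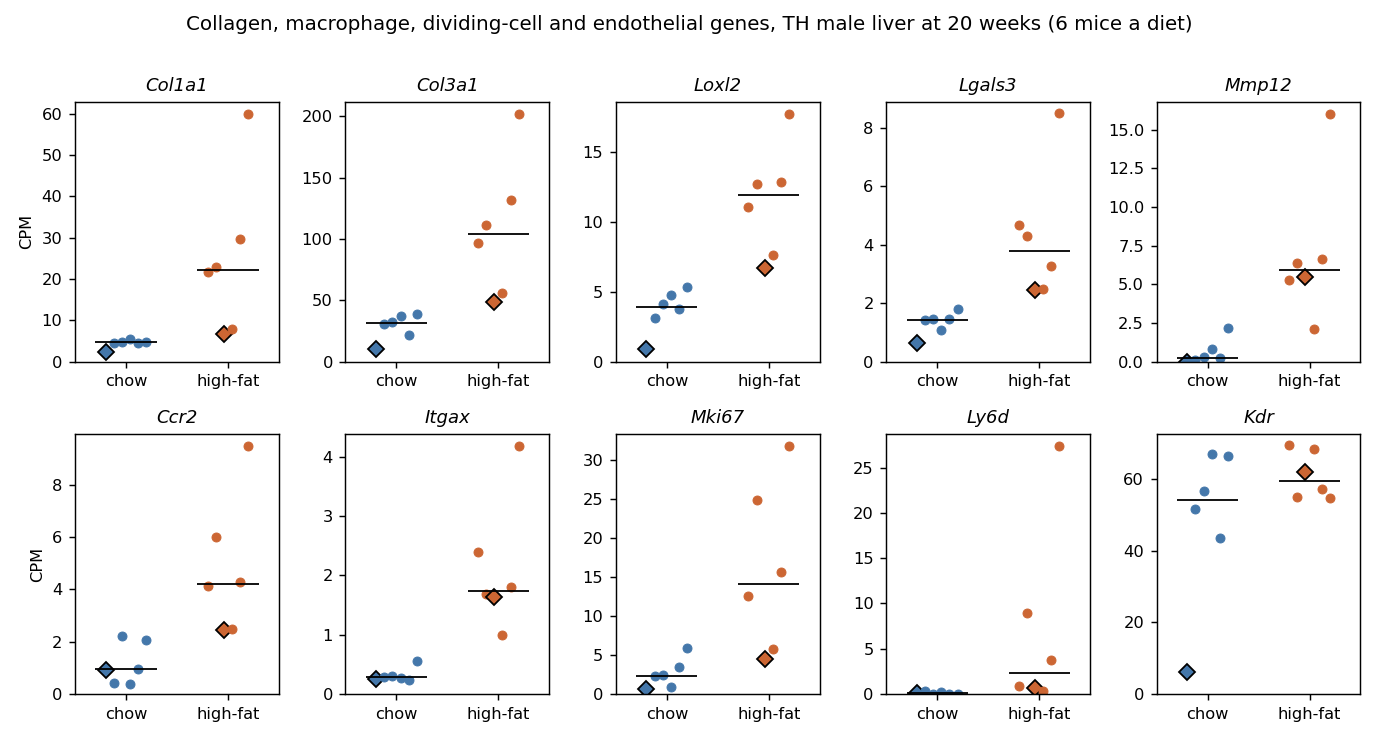
CPM of collagen and cross-linking genes, macrophage genes, the dividing-cell gene Mki67, Ly6d and the endothelial gene Kdr in each of the 6 chow (blue) and 6 high-fat (orange) TH male livers, with bars at the medians and black-edged diamonds for chow mouse 1 and high-fat mouse 3. High-fat mouse 6, the rightmost orange point, is highest for every gene shown except Kdr, where chow mouse 1 lies far below all others.

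Macrophage genes also rose. Of 14 Kupffer cell and general macrophage markers 8 rose and none fell (5 rises without high-fat mouse 6 and 12 without chow mouse 6), with a summed level of 87.4 to 321 CPM on chow and 318 to 448 CPM on high-fat diet. Chow mouse 1 gave the low end of that chow range, and the other chow mice ran from 199.9 to 321. Cd5l, which Kupffer cells secrete, was at 13.2 to 45.1 CPM (median 32.2) on chow and 56.4 to 87.2 CPM (median 63.6) on high-fat diet and rose by 1.13 ± 0.21, adjusted p = 0.00258. Cd68 (0.98 ± 0.22), Lyz2 (0.82 ± 0.20) and the complement genes C1qa (0.74 ± 0.20) and C1qb (0.80 ± 0.20) rose too. Marco, a scavenger receptor, was not called with all mice (-0.61 ± 0.21, adjusted p = 0.0698) and fell without high-fat mouse 3 (-0.69, adjusted p = 0.0477) or 4 (-0.73, adjusted p = 0.0388). Clec4f, found on resident Kupffer cells, was not called with all mice (0.56 ± 0.21, adjusted p = 0.0943) and was without chow mouse 1 (0.39, adjusted p = 0.0389) or without chow mouse 6 (0.71, adjusted p = 0.0321). Of 11 tested markers of lipid-associated and monocyte-derived macrophages 6 rose (6 to 7 with 1 mouse left out) and none fell. Mmp12, an elastase of macrophages, was at 0 to 2.21 CPM (median 0.269) on chow and 2.09 to 16 CPM (median 5.96) on high-fat diet, Ccr2, the receptor that recruits monocytes, at 0.367 to 2.22 CPM (median 0.938) on chow and 2.44 to 9.48 CPM (median 4.2) on high-fat diet, and Lgals3, galectin 3, at 0.649 to 1.79 CPM (median 1.43) on chow and 2.44 to 8.49 CPM (median 3.79) on high-fat diet. Mmp12 rose by 3.45 ± 0.60, adjusted p = 0.00176, and by 4.30 without chow mouse 6, the highest of its group. Ccr2 rose by 2.10 ± 0.44, adjusted p = 0.00541 and Lgals3 by 1.70 ± 0.34, adjusted p = 0.00379, each without overlap.

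Some macrophage genes were below the filter on low counts. Without it Trem2, the lipid receptor of these macrophages, had 1.58 ± 0.38, adjusted p = 0.00978, Gpnmb 2.18 ± 0.62, adjusted p = 0.0299 and Itgax, which codes for CD11c, 2.69 ± 0.40, adjusted p = 0.000117. Neutrophil, T and NK cell, and B and plasma cell lists had few members above the filter, 2 of 11, 1 of 16 and 3 of 10. Ighm, the heavy chain of IgM, was at 4.16 to 7.52 CPM (median 6.82) on chow and 6.11 to 22 CPM (median 15.6) on high-fat diet and rose by 1.18 ± 0.24, adjusted p = 0.00507. Igkc, the kappa light chain, was at 3.86 to 5.8 CPM (median 4.7) on chow and 2.14 to 15.2 CPM (median 3.38) on high-fat diet and Jchain at 0.649 to 1.93 CPM (median 1.54) on chow and 0.316 to 5.83 CPM (median 0.804) on high-fat diet, and in both the highest value was high-fat mouse 1. Igkc changed by 0.06 ± 0.41, adjusted p = 0.952 with all mice and by -0.66 (adjusted p = 0.0354) without that mouse.

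Chemokine genes rose in 7 of 10 tested cases with no fall, and in 4 without chow mouse 2 or high-fat mouse 6. Cxcl16 was at 2.08 to 7.17 CPM (median 5.63) on chow and 8.52 to 11 CPM (median 9.71) on high-fat diet and rose by 0.87 ± 0.20, adjusted p = 0.00891, Ccl6 rose by 1.06 ± 0.21, adjusted p = 0.00455, and Il1rn, the interleukin 1 receptor antagonist, by 1.62 ± 0.32, adjusted p = 0.00407. Il1b was not called (-0.32 ± 0.51, adjusted p = 0.749). Ccl2, the ligand of Ccr2, was below the filter and had 1.80 ± 0.43, adjusted p = 0.00951 without it. Interferon response genes rose in 14 of 21 tested cases and none fell, with a median of 0.84. With 1 mouse left out 11 to 15 rose and none fell. Ifi44 was at 0 to 1.79 CPM (median 0.778) on chow and 2.49 to 4.84 CPM (median 3.85) on high-fat diet and rose by 2.17 ± 0.37, adjusted p = 0.00151. Oas1a, which senses double-stranded RNA, was at 0.483 to 1.63 CPM (median 0.85) on chow and 1.89 to 5.4 CPM (median 3.57) on high-fat diet and rose by 1.92 ± 0.29, adjusted p = 0.000722. In both genes no mouse overlapped. Gbp2 (1.45 ± 0.24), Oasl2 (1.28 ± 0.26), Ifit1 (1.16 ± 0.25), Ifit3 (1.22 ± 0.27) and Xaf1 (1.13 ± 0.21) rose as well, and Isg15 (0.13 ± 0.32, adjusted p = 0.844) and Mx2 (-0.00 ± 0.24, adjusted p = 0.999) were not called.

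Among 11 tested proliferation genes 5 rose (2 without high-fat mouse 2 or 6) and 1 fell. Mki67, present in dividing cells, was at 0.649 to 5.93 CPM (median 2.32) on chow and 4.48 to 31.8 CPM (median 14.1) on high-fat diet and rose by 2.64 ± 0.54, adjusted p = 0.00452. High-fat mice 6 and 2 were the highest, and mice 3 and 4 lay below chow mouse 6. Mcm5, a replication helicase subunit, rose by 1.12 ± 0.27, adjusted p = 0.0123. Tk1, thymidine kinase, fell by 1.26 ± 0.19 (adjusted p = 0.000651), with every high-fat mouse below every chow mouse. The other 14 members had too few reads for the filter, and with no filter 13 of the list rose and 1 fell, beside 4.9% and 2.82% of all genes. These included Cdk1 (2.31 ± 0.47, adjusted p = 0.00271), Ccna2 (2.41 ± 0.46, adjusted p = 0.00139), Ccnb1 (2.74 ± 0.65, adjusted p = 0.00935) and Cdc20 (2.97 ± 0.56, adjusted p = 0.00131). Cdkn1a, the p21 inhibitor of the cell cycle, was at 1.42 to 31.2 CPM (median 3.62) on chow and 7.07 to 42.7 CPM (median 14) on high-fat diet and was called only without chow mouse 1 (1.27 ± 0.66, adjusted p = 0.227 with it, 2.60 without). Ly6d, below the filter, was at 0 to 0.284 CPM (median 0.0649) on chow and 0.299 to 27.3 CPM (median 2.32) on high-fat diet and had 5.87 ± 1.13, adjusted p = 0.00171 without it, with 27.3 CPM in high-fat mouse 6. Of 6 tested members of the fetal and tumour-associated list 1 rose and none fell, with 1 to 3 rises when 1 mouse was left out. That gene, Sox4, was at 0.26 to 1.66 CPM (median 1.07) on chow and 2.34 to 5.18 CPM (median 3.38) on high-fat diet and rose by 1.87 ± 0.34, adjusted p = 0.00236.

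Clock genes were mixed, with 5 up and 3 down of 16, and the balance depended on single mice. Without chow mouse 1 there were 4 up and 6 down, without chow mouse 2 or high-fat mouse 4 or 6 there were 3 up and 1 down, and without chow mouse 6 or high-fat mouse 2 there were 4 up and 1 down. Npas2, which pairs with BMAL1, was at 2.05 to 10.9 CPM (median 4.53) on chow and 8.04 to 16 CPM (median 14.5) on high-fat diet and rose by 1.30 ± 0.33, adjusted p = 0.0161, and Bhlhe40, a repressor of the clock, rose by 0.95 ± 0.20, adjusted p = 0.0063. Tef, an output factor, fell by 0.95 ± 0.23 (adjusted p = 0.0132). Dbp, the output factor with the deepest daily rhythm, was at 0.779 to 19.9 CPM (median 5.08) on chow and 1.09 to 3.72 CPM (median 1.32) on high-fat diet and fell by 2.00 ± 0.60 (adjusted p = 0.0343). Dbp was no longer called without chow mouse 5 or 6 or high-fat mouse 1, 2, 4 or 6, and without chow mouse 2, the highest, it changed by -1.36 (adjusted p = 0.0924). The hour of collection is not given in the sources used here, and its part in these values was not tested.

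Markers of tissue next to the liver were low. None of 8 skeletal muscle and 11 exocrine pancreas genes passed the filter on low counts, and in adipocytes Adipoq, Lep and Plin1 did not. High-fat mouse 1 stood apart, with summed exocrine pancreas genes of 12.9 CPM against 0 to 0.591 in the other 11 libraries. Without that mouse the diet test called 1030 rises and 844 falls. Of 7 adipocyte genes 2 were tested and both fell (1 to 2 with 1 mouse left out), with a median of -1.19. The summed adipocyte level was 11.31 to 19.95 CPM on chow and 5.84 to 10.41 CPM on high-fat diet. Among the tested genes Lipe, the hormone-sensitive lipase, which the liver also makes, fell by 0.68 ± 0.15 (adjusted p = 0.00671). Fabp2, an intestinal fatty acid carrier also made by hepatocytes, was at 29.6 to 47.6 CPM (median 39) on chow and 82 to 107 CPM (median 99.2) on high-fat diet and rose by 1.31 ± 0.12, adjusted p = 8.45e-06. None of the 4 haemoglobin genes was called, with Hbb-bs at 169 to 505 CPM (median 197) on chow and 145 to 499.5 CPM (median 302) on high-fat diet. High-fat mouse 1 also had Epcam at 4.69 CPM and Krt19 at 4.34 CPM, duct or gut epithelial genes, against highest values of 1.12 and 1.04 in the other 11 libraries.

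The diet responses were compared with those of the 3 other liver pairs, with the difference tested as an interaction, so that all 3 comparisons share the TH male libraries at 20 weeks. The response of TH males at 20 weeks comes from the fit of their own libraries. The other pair's response and the difference come from a joint fit, so the values need not subtract exactly. The response of TH males differed from that of TH females in 384 genes, with 1.51% of the genes tested more positive in males and 0.927% more negative. Without high-fat mouse 3 there were 439 more positive and 347 more negative, and the counts were 140 and 86 without high-fat mouse 2, 142 and 111 without mouse 5, and 136 and 77 without mouse 6. Cd36 changed by -1.96 ± 0.35 in females against 2.19 ± 0.45 in males, a difference of 4.14 ± 0.52, adjusted p = 0.000118. In CPM, female Cd36 averaged 60.1 ± 17.5 (SD, n = 6) on chow and 15.5 ± 3.83 (SD, n = 6) on high-fat diet. Cyp4a14, a PPAR-alpha target not called in males alone, differed by 3.72 ± 0.71, adjusted p = 0.00457. Of 25 fatty acid oxidation genes 10 were more positive in males and none more negative. The median change of that list in the joint fit was 0.07 in males and -0.35 in females. Apoa4 rose in both sexes and differed by 2.60 ± 0.43, adjusted p = 0.00131. Mup20 differed by 1.57 ± 0.32, adjusted p = 0.0077. The collagen Col1a2 differed by 1.83 ± 0.46, adjusted p = 0.0305, with 0.35 ± 0.31 in females, and this call was lost without chow mouse 5 or high-fat mouse 2, 5 or 6, at 1.77, 1.82, 1.80 and 1.42 (lowest adjusted p = 0.0527).

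Other sex differences had the opposite sign. Hsd3b5 and Hsd3b4, steroid dehydrogenases of close sequence, differed by -4.49 ± 0.65, adjusted p = 0.00039 and -4.29 ± 0.61, adjusted p = 0.00036. Igfbp2 differed by -1.45 ± 0.33, adjusted p = 0.0186, Arg1 by -0.79 ± 0.13, adjusted p = 0.00114 and Slco1a4 by -1.56 ± 0.27, adjusted p = 0.00206. For Fasn (1.30 ± 0.55, adjusted p = 0.201), Hmgcs1 (-0.16 ± 0.36, adjusted p = 0.848) and Cyp3a11 (-0.08 ± 0.23, adjusted p = 0.882) no difference between the sexes was called, which does not show that the sexes responded alike.

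The response of TH males differed from that of B6 males of the same age and feeding time in 439 genes, 260 (1.75%) more positive and 179 (1.2%) more negative in TH. Without high-fat mouse 3 there were 444 and 314, without mouse 2 there were 179 and 105, and without mouse 6 there were 163 and 115. Cd36 changed by -1.55 ± 0.35 in B6, a difference of 3.73 ± 0.51, adjusted p = 0.000192, and Cyp4a14 by -4.13 ± 0.45, a difference of 5.29 ± 0.76, adjusted p = 0.000287. Matrix genes were more positive in TH for 8 of 27 and more negative for none. Col1a1 changed by -0.52 ± 0.42 in B6, a difference of 2.98 ± 0.56, adjusted p = 0.0035, and Col1a2 by 0.08 ± 0.32, a difference of 2.10 ± 0.45, adjusted p = 0.00839. Scd1 changed by 0.83 ± 0.26 in B6, a difference of 2.32 ± 0.37, adjusted p = 0.00078. Fasn differed by 0.96 ± 0.41, adjusted p = 0.218, and was called without high-fat mouse 3 (adjusted p = 0.00353). Vnn1 differed by 3.19 ± 0.64, adjusted p = 0.00531 and Cyp3a11, which fell further in B6 (-2.70 ± 0.13), by 1.27 ± 0.17, adjusted p = 0.000189. Cyp2b10 fell in both strains, with -7.21 ± 0.69 in B6 and no called difference (-0.16, adjusted p = 0.993).

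The response of TH males at 20 weeks of age differed from that of TH males at 5 weeks, after 1 week of feeding, in 1576 genes, 903 (6.17%) more positive and 673 (4.6%) more negative. Age and time on the diet cannot be told apart here. Fatty acid synthesis genes were more positive after 16 weeks for 16 of 23 and more negative for 1. Scd1 changed by -1.41 ± 0.39 after 1 week, a difference of 4.58 ± 0.57, adjusted p = 5.02e-05, and Fasn by -0.56 ± 0.34, a difference of 3.20 ± 0.49, adjusted p = 0.000381. Matrix genes were more positive for 14 of 28 and more negative for 1, with Col1a1 at 0.10 ± 0.36 after 1 week and a difference of 2.38 ± 0.54, adjusted p = 0.00553. Interferon response genes were more positive for 9 of 22 and proliferation genes for 9 of 18, with 1 of the latter more negative. Mki67 differed by 4.32 ± 0.93, adjusted p = 0.00411. Cholesterol synthesis genes were more positive at 16 weeks for 7 of 25 and more negative for 1, and Sqle, which fell after 1 week by more (-3.63 ± 0.34), differed by 1.74 ± 0.44, adjusted p = 0.0114. Cyp2b10 was already low after 1 week (-7.43 ± 0.62), as was Cyp3a11 (-1.40 ± 0.10), and neither difference was called. Mup20 rose by 1.74 ± 0.12 after 1 week, with a difference of -0.05 ± 0.17, adjusted p = 0.894. Among 18 clock genes 8 were more negative and 2 more positive after 16 weeks, with Dbp at -4.26 ± 1.21, adjusted p = 0.0227, and at -3.63 (adjusted p = 0.0677) without chow mouse 2.

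**Figure D5:**
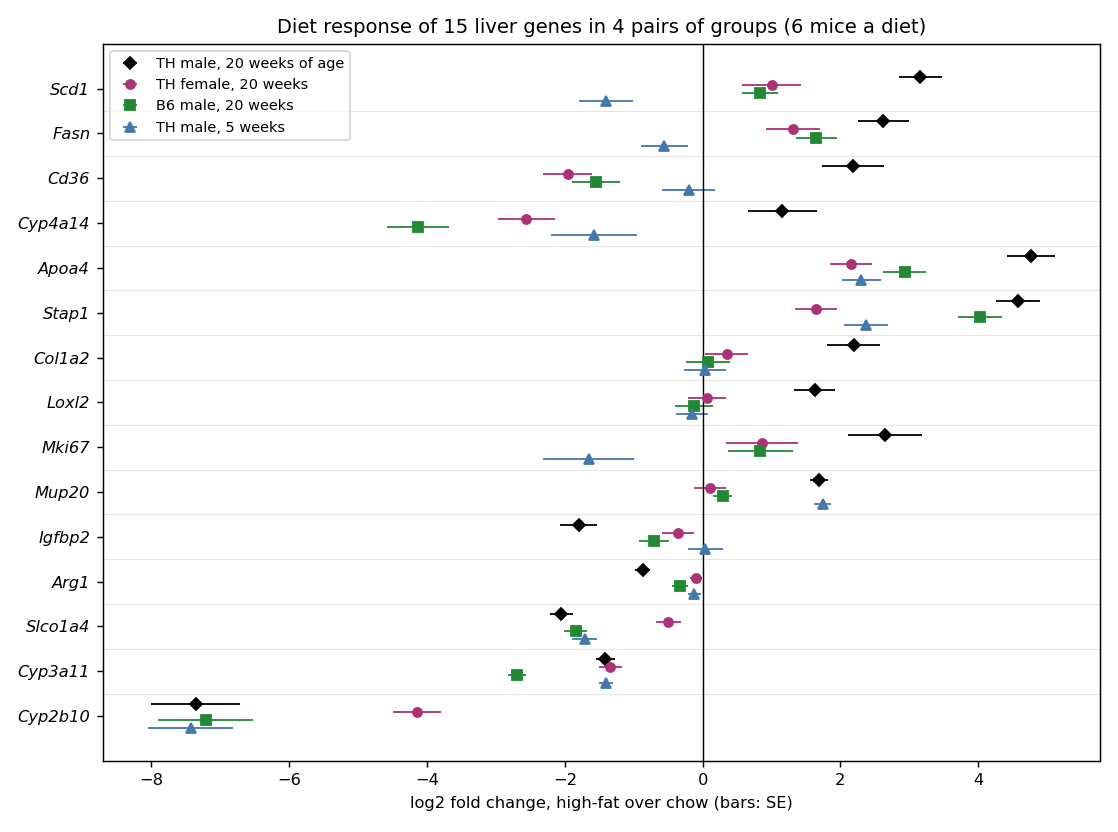
Log2 fold change of high-fat over chow (points) with its standard error (bars) for 15 genes in TH males, TH females and B6 males at 20 weeks of age and TH males at 5 weeks, 6 mice a diet in each pair. The collagen and Cd36 points of TH males at 20 weeks lie apart on the right, Cyp2b10 lies far left in all 4 pairs, and Mup20 is to the right in TH males at both ages.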

How the data were processed

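Gene counts of 12 TH male livers at 20 weeks were analysed, with 36 liver libraries of the other 3 pairs. Per the labels, RNA was isolated with the RNeasy Plus Universal Kit, had a RIN above 8 and was made into poly(A)-selected stranded TruSeq libraries. The submitters' processing notes name Trimmomatic 0.39, HISAT2 2.2.1, SAMtools, DESeq, DESeq2 and GRCm39. Which program counted reads, by which gene models and whether by strand, is not given in the sources used here, so overlapping and antisense genes cannot be told apart from their partners. The deposited table of raw counts holds 56980 identifiers, of which 52073 have a symbol. The deposited FPKM and normalised tables were not used.

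Counts were filtered within each comparison with filterByExpr (minimum count 10, minimum total 15), scaled by trimmed mean of M values and fitted with edgeR 4.0.16 (limma 3.58.1, R 4.3.3) by quasi-likelihood, with Benjamini-Hochberg adjustment and a threshold of 0.05. Differences between pairs were interaction terms. Standard errors were obtained by dividing each log2 change by the root of its F statistic, which is not reliable near no change. Alternatives were relative log expression factors, no filter, all 16 liver groups in the fit, the replicate number as a block, DESeq2 1.42.0 and leaving out each mouse. Leaving out chow mouse 1 and high-fat mouse 3 together, and each TH male in turn in the interactions, was added after seeing the data. On simulated counts of 13949 genes with the real means, the diet test found 84 of 98 genes changed by 1 on the log2 scale. It found 98 of 99 changed by 2, with 4 unchanged genes among 186 calls. The test of the difference by sex, on 15515 genes, found 75 of 98 and 89 of 99, with 12 unchanged genes among 176 calls. Tables were joined with pandas 2.3.3 and numpy 2.4.6 in Python 3.11.15, and plots drawn with matplotlib 3.10.9.

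The genes named are the 12 largest rises and falls with a mean log2 CPM of at least 1, leaving out predicted and clone names, the 6 highest and 6 lowest differences of each interaction by the same limits, and for each list its largest rises and falls with further members whose role needed them. Some list members are not reported here by name. The members and lists were chosen with earlier results of these data known. The labels give each library its own animal number, and p-values measure the spread between these mice. Promoter sequences are from RefSeq on GRCm38.p6, another build than the counts, and were matched by symbol.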

Additional observations from a re-analysis of the deposited data

Results flagged for a closer look

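Of 118 groups of 6 mice examined, 17 had a lowest or highest mouse far from the other 5, where chance gives about 1 in 20, and 9 of the 17 were chow mouse 1. In that mouse Fgf21 was 3.64 CPM (0.142 to 0.69 in the other chow mice), Mt1 85.6 and Mt2 66.6. Its summed acute phase genes were 47499 CPM, bile acid genes 5682, female-biased genes 1023, stellate cell genes 83.9, endothelial genes 74.4 and B and plasma cell genes 11.8, each outside the range of the other chow mice. In high-fat mouse 3 the summed fatty acid synthesis genes were 7058 CPM and Dnaic1 was 3.77. In high-fat mouse 1 Meg3 was 2.29 CPM and summed B and plasma cell genes were 47.2. High-fat mouse 5 had 1.13 CPM of Cyp2c55, high-fat mouse 6 had 72.1 CPM of summed fetal and tumour-associated genes, chow mouse 3 had 97.5 CPM of Cyp26a1, and chow mouse 6 had 1670 CPM of summed red blood cell genes.

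The largest called differences between diet responses among genes with a mean log2 CPM of at least 1, each tested as an interaction in edgeR, are given as log2 values. In males above females they were Sult2a7 (4.61), Cyp4a12a (4.31), Cd36 (4.14), Cyp4a12b (4.04), Cyp4a14 (3.72) and Smpd3 (3.66), and in males below females Hsd3b5 (-4.49), Hsd3b4 (-4.29), Dnaic1 (-4.01), Tcf24 (-3.53), Adgrf1 (-3.14) and Zbtb7c (-3.08). Without high-fat mouse 3 Dnaic1 was -4.89 and Adgrf1 -4.05, without chow mouse 1 Zbtb7c was -2.40, and without high-fat mouse 6 Tcf24 was -4.37. In TH above B6 they were Cyp4a14 (5.29), Ttc39aos1 (4.40), Fam198a (4.32), Cxcl1 (4.00), Cd36 (3.73) and Mtmr11 (3.66), and in TH below B6 Adgrf1 (-3.03), Ly6a (-2.87), Gna14 (-1.83), Avpr1a (-1.75), Hamp2 (-1.74) and Hsd3b4 (-1.68). Without high-fat mouse 3 Adgrf1 was -3.92. Hamp2 lost its call without chow mouse 2, 3 or 4 or high-fat mouse 2, 5 or 6 (highest adjusted p = 0.0708, edgeR). After 16 weeks above 1 week they were the desaturase copies Scd3 (5.39), Scd4 (5.25), Scd2 (5.00) and Scd1 (4.58), then Mki67 (4.32) and Chrna4 (4.25), and below it Dbp (-4.26), Dnaic1 (-3.93), Adgrf1 (-3.28), Bmf (-2.96), Upp2 (-2.89) and Derl3 (-2.85). Without chow mouse 6 Chrna4 was 4.92, and without high-fat mouse 3 Dnaic1 was -4.78 and Adgrf1 -4.16. Dbp lost its call without chow mouse 2 (-3.63, adjusted p = 0.068 in edgeR), and Derl3 without chow mouse 5 (-1.77, adjusted p = 0.107 in edgeR) or high-fat mouse 6 (-2.68). Cyp4a12a, Cyp4a12b, Hsd3b4 and Hsd3b5 belong to families of close copies among which reads may have been split.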

How the results depend on the processing

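The diet test called 2153 genes with relative log expression factors, 2250 with no filter and 2494 with DESeq2. With all 16 liver groups in the fit it called 3414, of which 1980 rose and 1434 fell. Leaving out 1 mouse gave 1425 to 2543 calls, with 779 to 1493 rises and 646 to 1080 falls, and leaving out chow mouse 1 and high-fat mouse 3 together gave 2934 (1694 and 1240). The rises were fewest without high-fat mice 6 and 2. The difference by sex, 384 genes, became 722 (423 above and 299 below 0) with all groups in the fit, 679 (389 and 290) with DESeq2, and 136 to 439 above and 77 to 347 below 0 with 1 TH male left out. The difference by strain, 439 genes, became 668 with DESeq2, 292 of them below 0, and 163 to 444 above and 105 to 314 below 0 with 1 TH male left out. In both, high-fat mouse 3 gave the most calls when left out, and mouse 6 or 2 the fewest. The difference by duration, 1576 genes, ran from 637 to 1246 above and 521 to 871 below 0 with 1 TH male left out. For each of these moves the cause was not tested.

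With the replicate number as a block the diet test called 1752 genes and the differences by sex, strain and duration 278, 411 and 1350. The numbers did not pair the samples: same-numbered deviations correlated from -0.23 to 0.153, and only number 6 matched best in both directions. Of 281 called genes followed through the alternatives of the diet test, 190 kept their call in every fit that tested them and 0 changed direction. The call was lost without some mouse in 76 genes and in other settings only in 15. Uncalled genes that were called in the opposite direction without chow mouse 1 were Saa1, Saa2, Lcn2, Serpina3n and Fabp5. Over the mice left out Saa1 ran from -1.77 to 1.23, Saa2 from -2.32 to 2.15, Lcn2 from -0.74 to 2.92, Serpina3n from -0.14 to 0.40 and Fabp5 from -0.33 to 1.12, and without chow mouse 1 and high-fat mouse 3 they were at 1.29, 2.19, 3.03, 0.39 and 0.99. Igkc ran from -0.66, without high-fat mouse 1, to 0.20. Genes under the filter on low counts were tested only in the fit with no filter.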
